A study of Danio rerio with 12 samples.

Results

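A set of 10 chaperone genes of zebrafish was followed in whole-body RNA after exposure to diclofenac, to B[a]P and to both together. The genes were chosen by name, with earlier results of these data known. They were the Hsp70 genes hsp70l and hspa8, the J-domain gene dnajb1b, the Hsp90 genes hsp90aa1.1, hsp90aa1.2 and hsp90ab1, the myosin chaperone genes unc45b and smyd1b, and the heat shock factor genes hsf1 and hsf2. These 10 genes stood among 26240 gene symbols. The authors' table has an entry for each transcript class of a gene identifier, and the 10 genes had 18 of its 35497 entries under 11 gene identifiers, since hspa8 appeared under 2. Of the 18 entries, 12 reached an average of 1 CPM (reads of an entry scaled to a common library size) and were tested, at least 1 for every gene. The other 6 are minor transcript classes, given further down.

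The study exposed zebrafish (Danio rerio) for 48 h to a mixture of diclofenac and B[a]P, to diclofenac alone, to B[a]P alone, or to neither (Control), with 3 libraries described as independent replicates in each of the 4 groups. Diclofenac is a nonsteroidal anti-inflammatory drug, and B[a]P is benzo[a]pyrene, a polycyclic aromatic hydrocarbon formed in combustion. The design asks how a legacy pollutant and a drug act together. The concentrations, the age and strain of the fish, the vehicle and the number of fish per library were not known here.

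Heat shock proteins of the Hsp70 and Hsp90 families bind unfolded or partly folded proteins and release them in cycles driven by ATP. J-domain proteins such as Dnajb1b bring substrates to Hsp70 and stimulate its ATPase, nucleotide exchange factors reset it, and co-chaperones such as Stip1 hand substrates on to Hsp90. When unfolded proteins accumulate, the transcription factor Hsf1 is released from chaperones and switches on the inducible genes of this set, while the constitutive forms are made at all times. Skeletal muscle has a branch of its own: Unc45b, with the Hsp90 encoded by hsp90aa1.1 and the methyltransferase Smyd1b, is needed in zebrafish to fold myosin heads and build thick filaments.

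All values come from the authors' table of comparisons with Control, in which libraries are already combined, so values of single libraries were not analysed here. A fold change is a log2 ratio of a treatment to Control. Its standard error (SE) was implied from the authors' likelihood ratio, with 3 libraries per group, and intervals are 95% intervals from that SE. Adjusted p-values are the authors' two-sided likelihood ratio p-values after Benjamini-Hochberg adjustment over 21622 entries, called at 0.05. A group's level in CPM was also implied, from the average and the 3 fold changes of an entry. Such a level is approximate, carries no SD, and serves only to compare groups within a gene or within a stated sum of genes. Sums, like single levels, depend on how the deposited average is read. The labels call for 40000000 to 80000000 reads per library, and the depth of single libraries is unknown. The median implied SE over all tested entries was 0.25 log2 units in each comparison with Control. Of 69 listed markers of skeletal muscle, heart, liver, neurons, erythrocytes, lens and gut, 66 reached 1 CPM, with at least 4 for each tissue. In whole-body RNA, fewer cells of a type and less RNA per cell cannot be told apart.

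hsp70l, dnajb1b, hsp90aa1.1, hsp90ab1 and unc45b rose in the mixture and in diclofenac. hsp90aa1.2 and smyd1b passed the test in the mixture, and hsf1 in diclofenac. Of the 12 tested entries, 7 were higher in the mixture than in Control and none was lower, beside 8.12% of all tested entries called higher and 6.67% called lower. In diclofenac 6 were higher and none lower, beside 8.52% and 7.64% of all tested entries. In B[a]P none was called, beside 0.148% of all tested entries called in either direction. There none of the 12 had an unadjusted p under 0.05, beside 860 of all 21622 tested entries. The median fold change of the 12 entries was 0.61 in the mixture, 0.95 in diclofenac and 0.15 in B[a]P, calculated from the authors' deposited table, whereas over all tested entries it was 0.02 in the mixture, -0.01 in diclofenac and 0.02 in B[a]P. Over the 11 protein-coding entries alone, without the retained intron of hsp90ab1, the median was 0.63 in the mixture, 0.62 in diclofenac and 0.09 in B[a]P, so the medians show no order between the mixture and diclofenac. Implied levels of these entries ran between 3.60 and 5291 CPM over the 4 groups. The comparisons with Control share the Control libraries. Because the genes were chosen with earlier results known, the counts of called entries are not independent support.

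**Figure D1:**
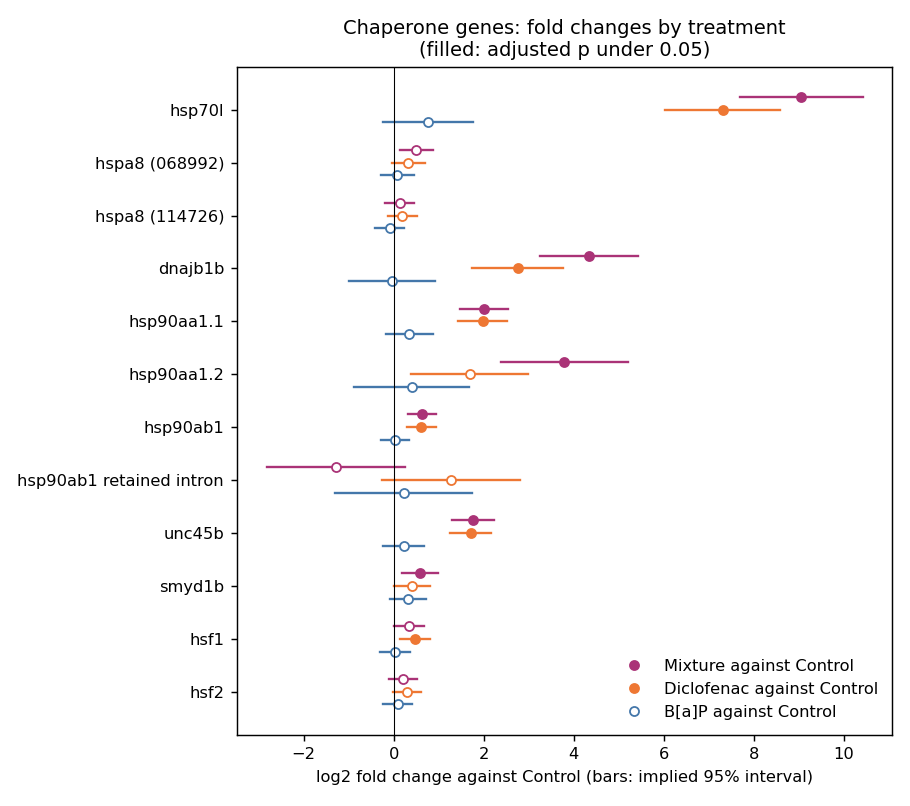
Log2 fold change against Control (horizontal axis) of every tested entry of the 10 chaperone genes in the mixture, diclofenac and B[a]P, with bars for the 95% interval from the implied standard error. hsp70l lies far to the right in the mixture (9.06) and in diclofenac (7.31), and the B[a]P intervals all cross 0.

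Inducible Hsp70 showed the widest separation of the groups. The implied level of hsp70l (ENSDARG00000055723), an inducible Hsp70 made at low levels in most unstressed zebrafish tissues, was 1917 CPM in the mixture, 571 CPM in diclofenac, 6.12 CPM in B[a]P and 3.60 CPM in Control. The mixture and diclofenac levels were both far above those of B[a]P and Control. In the authors' deposited table, hsp70l rose by 9.06 (implied SE 0.70) in the mixture, with an adjusted p of 1.59e-35. It rose by 7.31 (implied SE 0.65) in diclofenac in the authors' deposited table, with an adjusted p of 1.21e-26. In B[a]P its fold change in the authors' deposited table was 0.76, with an interval of -0.24 to 1.77 and an adjusted p of 1. The Control level of hsp70l is low, and reading the deposited average as a mean of logarithms in place of the logarithm of a mean puts it at 32.1 CPM. The fold changes do not depend on that reading.

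The other inducible Hsp70 copies hsp70.1, hsp70.2 and hsp70.3, which neighbour each other in RefSeq's zebrafish assembly GRCz12tu, were also higher. hsp70.1 rose by 8.71 in the mixture (adjusted p = 5.37e-31) and 6.94 in diclofenac (adjusted p = 8.67e-23) in the authors' deposited table. For hsp70.2 the authors' deposited table gives 6.72 in the mixture (adjusted p = 1.32e-19) and 4.92 in diclofenac (adjusted p = 1.77e-12), and for hsp70.3 it gives 6.96 in the mixture (adjusted p = 9.92e-19) and 5.14 in diclofenac (adjusted p = 3.89e-12). These copies are similar to one another and to hsp70l in sequence, so it is uncertain how reads were divided among them. Summing hsp70l and the 3 copies sets that split aside, though the sum still depends on how the deposited average is read. Read as the logarithm of a mean, the sum was 6396 CPM in the mixture, 1851 CPM in diclofenac, 58.1 CPM in B[a]P and 36.5 CPM in Control.

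The constitutive Hsp70 hspa8 (Hsc70), which folds new proteins and uncoats clathrin vesicles in unstressed cells, had small fold changes. Under its identifier ENSDARG00000068992 the implied level was 4249 CPM in the mixture, 3761 CPM in diclofenac, 3182 CPM in B[a]P and 3006 CPM in Control. The fold change in the mixture was 0.50 in the authors' deposited table, with an interval of 0.13 to 0.87 and an adjusted p of 0.0517, just short of the threshold; among entries of at least 5 CPM the adjusted p was 0.0438. In diclofenac it was 0.32 in the authors' deposited table, with an adjusted p of 0.252. Under ENSDARG00000114726 the implied level was 1786 CPM in the mixture, 1849 CPM in diclofenac, 1523 CPM in B[a]P and 1623 CPM in Control. Its fold changes in the authors' deposited table were 0.14 in the mixture (adjusted p = 0.655) and 0.19 in diclofenac (adjusted p = 0.497). The 2 identifiers carry the same symbol, and how reads were divided between them is uncertain.

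The J-domain co-chaperone gene dnajb1b (ENSDARG00000041394), the partner of Hsp70 that delivers substrates to it, had an implied level of 398 CPM in the mixture, 132 CPM in diclofenac, 19.0 CPM in B[a]P and 19.6 CPM in Control. B[a]P and Control were level with each other, and the mixture was highest. dnajb1b rose by 4.35 (implied SE 0.56) in the mixture in the authors' deposited table, with an adjusted p of 9.01e-13. In diclofenac it rose by 2.76 (implied SE 0.52) in the authors' deposited table, with an adjusted p of 3.70e-06. The B[a]P fold change was -0.04 in the authors' deposited table, with an interval of -0.99 to 0.92.

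**Figure D2:**
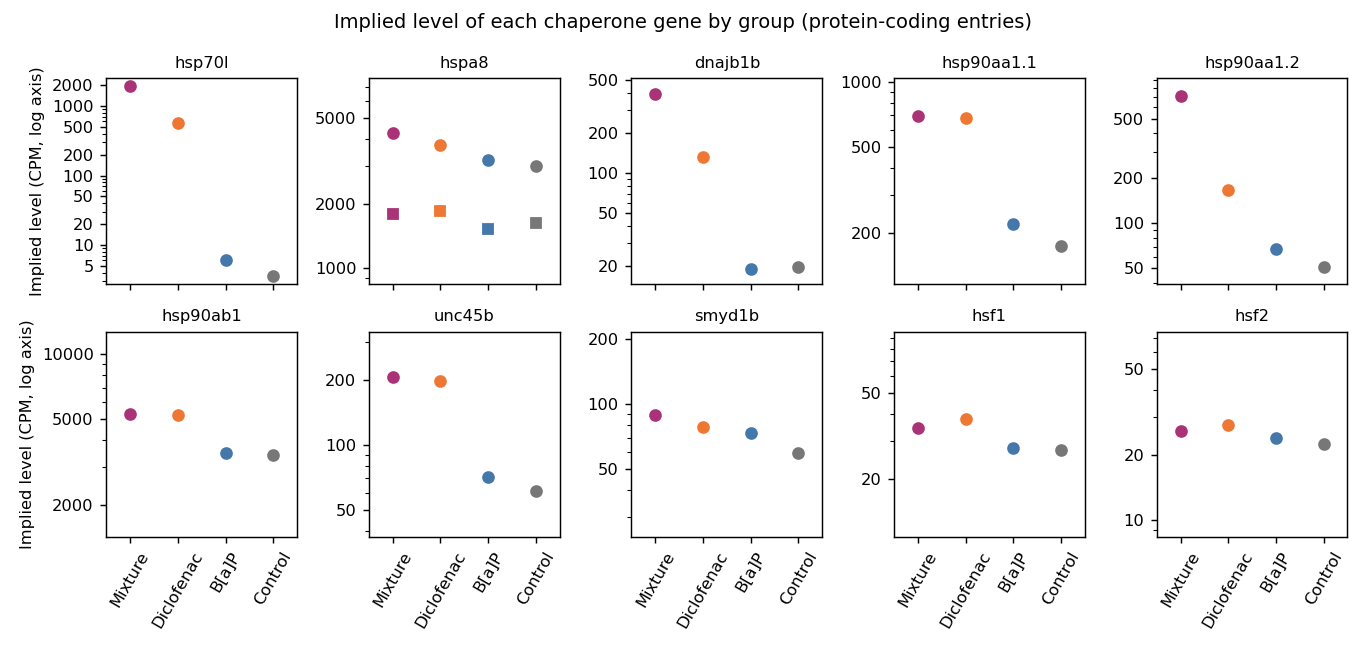
Implied level in CPM (vertical log axis, a scale of its own in each panel) of the protein-coding entries of each chaperone gene in the mixture, diclofenac, B[a]P and Control; squares mark the identifier ENSDARG00000114726 of hspa8, and the points carry no error because libraries are combined. hsp70l, dnajb1b and hsp90aa1.2 are highest in the mixture, whereas hsp90aa1.1, hsp90ab1 and unc45b are nearly level between the mixture and diclofenac.

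The 3 cytosolic Hsp90 genes had fold changes of different size. hsp90aa1.1 (ENSDARG00000010478), the Hsp90 of striated muscle in zebrafish embryos, had an implied level of 696 CPM in the mixture, 679 CPM in diclofenac, 219 CPM in B[a]P and 173 CPM in Control. Its mixture and diclofenac levels were nearly the same, and both were above B[a]P and Control. It rose by 2.01 (implied SE 0.27) in the mixture in the authors' deposited table, with an adjusted p of 3.18e-11. It rose by 1.98 (implied SE 0.27) in diclofenac in the authors' deposited table, with an adjusted p of 5.78e-11. In B[a]P the fold change was 0.34 in the authors' deposited table, with an interval of -0.17 to 0.86.

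The neighbouring copy hsp90aa1.2 (ENSDARG00000024746), the other Hsp90 alpha gene, had an implied level of 712 CPM in the mixture, 166 CPM in diclofenac, 67.7 CPM in B[a]P and 51.3 CPM in Control. The mixture level was the highest and the diclofenac level came next. The difference between the mixture and diclofenac did not pass, as given further down. hsp90aa1.2 rose by 3.79 (implied SE 0.72) in the mixture in the authors' deposited table, with an adjusted p of 7.19e-06. Its diclofenac fold change was 1.69 in the authors' deposited table, with an interval of 0.39 to 3.00 and an adjusted p of 0.0624, which did not pass. The implied SE of hsp90aa1.2 was among the widest of the 10 genes, like that of hsp70l. hsp90aa1.1 and hsp90aa1.2 are adjacent and similar, so how reads were divided between them is uncertain. Their sum was 1408 CPM in the mixture, 845 CPM in diclofenac, 287 CPM in B[a]P and 224 CPM in Control.

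The constitutive Hsp90 gene hsp90ab1 (ENSDARG00000029150) had an implied level of 5291 CPM in the mixture, 5238 CPM in diclofenac, 3476 CPM in B[a]P and 3419.5 CPM in Control. The mixture and diclofenac differed little, as did B[a]P and Control. It rose by 0.63 (implied SE 0.16) in the mixture in the authors' deposited table, with an adjusted p of 0.00164. It rose by 0.62 (implied SE 0.16) in diclofenac in the authors' deposited table, with an adjusted p of 0.00190. A retained-intron entry of hsp90ab1 ran differently, with an implied level of 13.7 CPM in the mixture, 81.0 CPM in diclofenac, 38.9 CPM in B[a]P and 33.4 CPM in Control. Its fold changes in the authors' deposited table were -1.28 in the mixture (adjusted p = 0.300) and 1.28 in diclofenac (adjusted p = 0.286), and neither passed.

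The myosin chaperone gene unc45b (ENSDARG00000008433), which encodes the co-chaperone that holds myosin and Hsp90 together in muscle, had an implied level of 207 CPM in the mixture, 199 CPM in diclofenac, 71.0 CPM in B[a]P and 60.9 CPM in Control. As for hsp90aa1.1, the mixture and diclofenac were nearly level and above the other groups. unc45b rose by 1.76 (implied SE 0.24) in the mixture in the authors' deposited table, with an adjusted p of 1.07e-11. It rose by 1.71 (implied SE 0.24) in diclofenac in the authors' deposited table, with an adjusted p of 4.00e-11. In B[a]P the fold change was 0.22 in the authors' deposited table, with an interval of -0.23 to 0.67.

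smyd1b (ENSDARG00000091253), the muscle methyltransferase needed for thick filament assembly, had smaller fold changes than unc45b. Its implied level was 89.0 CPM in the mixture, 78.6 CPM in diclofenac, 73.8 CPM in B[a]P and 59.1 CPM in Control. It rose by 0.59 (implied SE 0.20) in the mixture in the authors' deposited table, with an adjusted p of 0.0305. This call was lost under the stricter Benjamini-Yekutieli adjustment, with an adjusted p of 0.322. The fold changes in the authors' deposited table were 0.41 in diclofenac (adjusted p = 0.165) and 0.32 in B[a]P (adjusted p = 1), and neither passed. The smyd1b level in the mixture was not shown to differ from that in B[a]P, with a difference of 0.27, an interval of -0.13 to 0.67 and an adjusted p of 0.416 by the approximate Wald test.

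The heat shock factor genes themselves had small fold changes. hsf1 (ENSDARG00000008818), whose protein is controlled mainly after it is made, had an implied level of 34.5 CPM in the mixture, 37.9 CPM in diclofenac, 27.7 CPM in B[a]P and 27.2 CPM in Control. It rose by 0.48 (implied SE 0.17) in diclofenac in the authors' deposited table, with an adjusted p of 0.0399, and the adjusted p was 0.0589 when entries of low level were kept in the adjustment. In the mixture its fold change was 0.34 in the authors' deposited table, with an adjusted p of 0.185. The difference between mixture and diclofenac was -0.14, with an interval of -0.47 to 0.20, so the call in diclofenac alone does not show that the treatments differed. hsf2 (ENSDARG00000053097), which encodes a factor that can form mixed trimers with Hsf1, had implied levels of 25.9 CPM in the mixture, 27.7 CPM in diclofenac, 23.9 CPM in B[a]P and 22.5 CPM in Control. Its fold changes in the authors' deposited table were 0.20 in the mixture (adjusted p = 0.457) and 0.30 in diclofenac (adjusted p = 0.216).

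The 6 entries under 1 CPM were a processed transcript of dnajb1b and of hsp90aa1.1, a retained intron of hsf1, hsf2 and hsp90aa1.2, and a transcript of unc45b marked for nonsense-mediated decay. Their averages ran between 0.144 and 0.471 CPM. The hsp90aa1.1 entry is listed at the floor of the table, with fold changes of 0. None of the 6 was tested.

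How the mixture compared with each compound was tested on differences between the fold changes, with an approximate Wald test that assumes equal spread in all groups. That comparison reads as an effect of the added compound only if each compound had the same concentration alone and in the mixture, and the concentrations were not known here. Against B[a]P, 6 of the 12 entries were higher in the mixture, beside 8.33% of all tested entries, and they were hsp70l, dnajb1b, hsp90aa1.1, hsp90aa1.2, hsp90ab1 and unc45b. The smallest difference was 0.61 for hsp90ab1 (adjusted p = 0.00234) and the largest 8.29 for hsp70l (adjusted p = 1.21e-29). Likewise 6 of 12 were higher in diclofenac than in B[a]P, beside 9.51% of all tested entries. They were hsp70l, dnajb1b, hsp90aa1.1, hsp90ab1, unc45b and hsf1. For hsf1 the difference was 0.45, with an adjusted p of 0.0491, which became 0.0736 when entries of low level were kept in the adjustment. For hsp90aa1.2 it was 1.29, with an interval of -0.13 to 2.71 and an adjusted p of 0.214.

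Between the mixture and diclofenac, none of the 12 entries passed the approximate Wald test, beside 0.365% of all tested entries. The unadjusted p was under 0.05 for 4 of the 12, beside 1589 of all 21622 tested entries. Of these 4, 3 were higher in the mixture. The mixture minus diclofenac difference was 2.10 for hsp90aa1.2, with an interval of 0.68 to 3.52, an unadjusted p of 0.00366 and an adjusted p of 0.283. For hsp70l it was 1.75, with an interval of 0.38 to 3.11, an unadjusted p of 0.0122 and an adjusted p of 0.432. For dnajb1b it was 1.59, with an interval of 0.50 to 2.68, an unadjusted p of 0.00424 and an adjusted p of 0.303. The fourth was the retained intron of hsp90ab1, which was lower, at -2.56 with an interval of -4.10 to -1.02 and an adjusted p of 0.153. The intervals of hsp90aa1.2, hsp70l and dnajb1b thus lay above 0 singly, and none of these differences passed after adjustment over all entries. These genes were singled out here by their unadjusted p.

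The protein-coding entries of the other genes of the set had intervals that spanned 0 for mixture minus diclofenac. The difference was 0.04 for hsp90aa1.1, with an interval of -0.50 to 0.57. For unc45b it was 0.05, with an interval of -0.41 to 0.52. For hsp90ab1 it was 0.01, with an interval of -0.30 to 0.33. smyd1b had 0.18, with an interval of -0.22 to 0.58. hspa8 had 0.18 under ENSDARG00000068992, with an interval of -0.19 to 0.54, and -0.05 under ENSDARG00000114726, with an interval of -0.37 to 0.27. hsf1 had -0.14, and hsf2 had -0.09 with an interval of -0.41 to 0.22. A p that misses the threshold does not show that levels were equal, and these intervals give the size of difference that the data still allow.

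**Figure D3:**
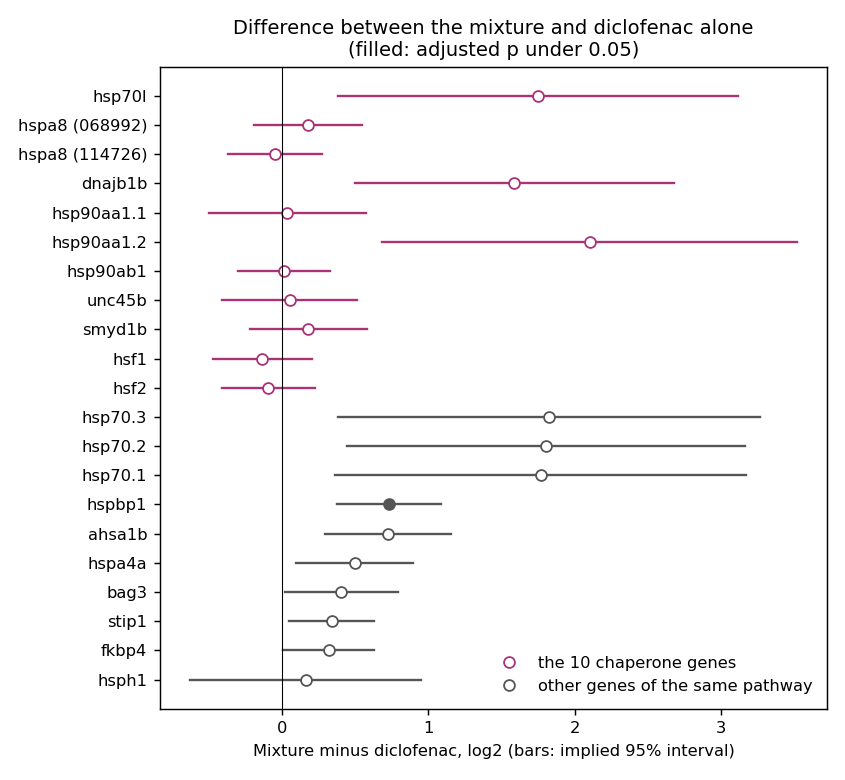
Mixture minus diclofenac difference in log2 units (horizontal axis) for the protein-coding entries of the 10 chaperone genes, above, and for 10 pathway genes, below. Bars give the 95% interval of the approximate Wald test. The lower 10 were picked from genes that rose in the mixture, which favours differences above 0, so their side of 0 is not a result. Not every such gene is drawn: dnajb4 also rose in the mixture, and its difference was -0.04. Among the upper genes, the intervals of hsp90aa1.2, hsp70l and dnajb1b lie above 0. Among the lower genes, picked as just stated, all intervals but that of hsph1 lie above 0. Of all genes drawn only hspbp1 (0.73) passed after adjustment.

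Departure from additivity was tested on the log2 scale, as the mixture fold change minus those of diclofenac and B[a]P. On that scale no departure means that the linear fold changes of the 2 compounds multiply. Whether their effects on levels in CPM add up was not tested. None of the 12 entries passed, beside 0.0462% of all tested entries. The unadjusted p was under 0.05 for 2 of the 12, beside 979 of all 21622 tested entries. The departure was 1.63 for dnajb1b, with an interval of 0.09 to 3.17 and an adjusted p of 0.999. For the hsp90ab1 retained intron it was -2.78, with an interval of -4.96 to -0.60 and an adjusted p of 0.842. The highest departure was 1.70, for hsp90aa1.2, with an interval of -0.30 to 3.71 and an adjusted p of 0.999. For hsp70l the departure was 0.98, with an interval of -0.95 to 2.91, so a departure of up to 2.91 log2 units was within the error.

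The wider chaperone network was counted on lists of other family members. Outside the 10 genes, the Hsp70 and Hsp110 family had 14 tested genes. In the mixture 5 were higher and 1 lower, beside 8.12% and 6.67% of all tested entries. In diclofenac 5 were higher and 2 lower, beside 8.52% and 7.64% of all tested entries. The median fold change from the authors' deposited table was 0.26 in the mixture and 0.05 in diclofenac. The 5 higher genes in both treatments were hsp70.1, hsp70.2, hsp70.3, hspa4a and hsph1. hsph1, an Hsp110 that acts as an exchange factor for Hsp70, rose by 3.97 in the mixture (adjusted p = 1.54e-20) and 3.81 in diclofenac (adjusted p = 3.74e-19) in the authors' deposited table. The Hsp110 gene hspa4l fell by 1.43 in the mixture (adjusted p = 1.68e-07) and by 1.18 in diclofenac (adjusted p = 1.85e-05) in the authors' deposited table.

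Of 14 Hsp70 exchange factor genes, 4 were higher and 1 lower in the mixture, beside 8.12% and 6.67% of all tested entries. In diclofenac 4 were higher and 2 lower, beside 8.52% and 7.64%. The median was 0.11 in each treatment, from the authors' deposited table. hspa4a, hspa4b, hspa4l, hsph1 and hyou1 stand in this list and in the preceding one. hspa4a rose by 1.36 in the mixture (adjusted p = 3.36e-09) and 0.86 in diclofenac (adjusted p = 0.000427) in the authors' deposited table. bag3, which couples Hsp70 to the clearance of damaged filament proteins in muscle, rose by 3.07 in the mixture (adjusted p = 2.50e-51) and 2.67 in diclofenac (adjusted p = 2.19e-39) in the authors' deposited table. hspbp1, which releases nucleotide from Hsp70, had an implied level of 88.7 CPM in the mixture, 53.5 CPM in diclofenac, 10.2 CPM in B[a]P and 9.53 CPM in Control. It rose by 3.22 in the mixture (adjusted p = 8.01e-70) and 2.49 in diclofenac (adjusted p = 2.35e-42) in the authors' deposited table. hspbp1 was also higher in the mixture than in diclofenac, by 0.73 with an interval of 0.37 to 1.08 and an adjusted p of 0.0226 by the approximate Wald test. Its implied SE of 0.18 was much narrower than those of hsp70l, dnajb1b and hsp90aa1.2, whose larger differences did not pass.

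Other J-domain genes were called in both directions. Of 46 tested, 2 were higher and 5 lower in the mixture, beside 8.12% and 6.67% of all tested entries. In diclofenac 2 were higher and 7 lower, beside 8.52% and 7.64% of all tested entries. The medians were -0.02 in the mixture and -0.10 in diclofenac from the authors' deposited table. Beside these shares, the counts are not read as a result about J-domain genes as a family. dnajb4, a close relative of dnajb1b, rose by 1.63 in the mixture (adjusted p = 0.000225) and 1.66 in diclofenac (adjusted p = 0.000133) in the authors' deposited table. dnajc6, the auxilin that works with Hsc70 on clathrin coats in neurons, fell by 0.75 in the mixture (adjusted p = 9.84e-06) and by 0.81 in diclofenac (adjusted p = 1.09e-06) in the authors' deposited table. dnajc11b, a J-domain gene linked to mitochondrial membrane organisation in mammals, fell by 0.88 in the mixture (adjusted p = 5.47e-05) and by 1.00 in diclofenac (adjusted p = 2.73e-06) in the authors' deposited table. dnajc3b, a J-domain gene of the endoplasmic reticulum, fell by 0.61 in the mixture (adjusted p = 0.0353) and by 1.07 in diclofenac (adjusted p = 2.96e-05) in the authors' deposited table.

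Among 27 Hsp90 co-chaperone genes, 6 were higher and 1 lower in the mixture, beside 8.12% and 6.67% of all tested entries. In diclofenac 2 were higher and 1 lower, beside 8.52% and 7.64%. The medians were 0.15 in the mixture and 0.00 in diclofenac from the authors' deposited table. None of the 27 passed for mixture against diclofenac, beside 0.365% of all tested entries, or for departure from additivity, beside 0.0462%. The counts against Control thus do not show that the treatments differed. At such small shares, none of 27 does not show that they were alike either. stip1, which links Hsp70 to Hsp90, rose by 0.94 in the mixture (adjusted p = 2.02e-08) and 0.60 in diclofenac (adjusted p = 0.000893) in the authors' deposited table. fkbp4, an immunophilin of steroid receptor complexes, rose by 0.84 in the mixture (adjusted p = 5.27e-06) and 0.52 in diclofenac (adjusted p = 0.00974) in the authors' deposited table. ahsa1b, which activates the Hsp90 ATPase, rose by 1.02 in the mixture (adjusted p = 8.76e-05), and its diclofenac fold change was 0.30 (adjusted p = 0.390), in the authors' deposited table. Its mixture minus diclofenac difference did not pass (0.73, adjusted p = 0.131). fkbp5, a co-chaperone that glucocorticoids induce, fell by 1.59 in the mixture (adjusted p = 0.000213) and by 2.41 in diclofenac (adjusted p = 4.47e-09) in the authors' deposited table.

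The Hsp90 paralogs of other compartments were not higher in either treatment. hsp90b1 of the endoplasmic reticulum had a fold change of -0.15 in the mixture (adjusted p = 0.793) and fell by 0.85 in diclofenac (adjusted p = 0.0145) in the authors' deposited table. trap1 of mitochondria had a fold change of -0.18 in the mixture (adjusted p = 0.574) and fell by 0.47 in diclofenac (adjusted p = 0.0481) in the authors' deposited table. The mixture minus diclofenac difference passed for neither hsp90b1 (adjusted p = 0.397) nor trap1 (adjusted p = 0.773). None of 16 chaperonin and prefoldin genes was called in the mixture or in diclofenac. Over all tested entries, 14.8% were called in either direction in the mixture and 16.2% in diclofenac. The medians of the 16 genes were 0.24 in the mixture and 0.07 in diclofenac in the authors' deposited table. No gene of any chaperone list was called in B[a]P, beside 0.148% of all tested entries.

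**Figure D4:**
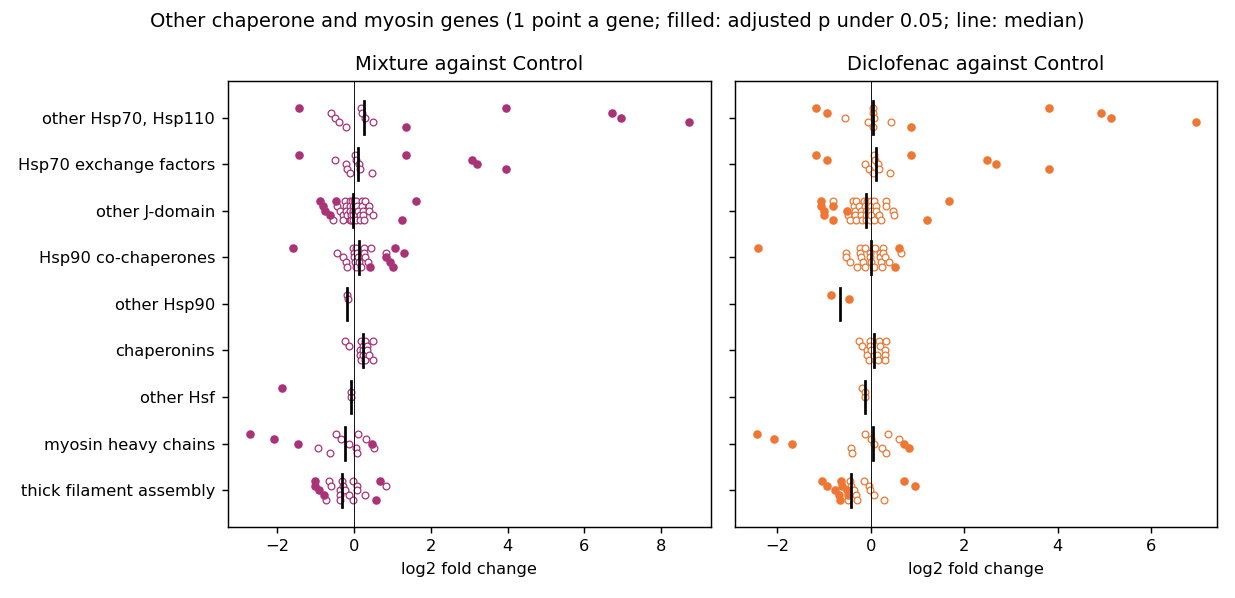
Log2 fold changes against Control (horizontal axis) of every tested gene in each chaperone and myosin list, for the mixture in the left panel and diclofenac in the right panel; filled points passed the test and vertical lines mark medians. The inducible Hsp70 copies and the exchange factors hsph1, bag3 and hspbp1 lie far to the right, and no chaperonin gene is filled in either panel.

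The myosin chaperones were set beside their client genes and beside muscle markers. Of 14 tested sarcomeric myosin heavy chain genes, 1 was higher and 3 lower in the mixture, beside 8.12% and 6.67% of all tested entries. In diclofenac 2 were higher and 3 lower, beside 8.52% and 7.64% of all tested entries. Thus 10 were not called in the mixture and 9 not in diclofenac, and the counts are not read as a result about the heavy chain genes as a family. The median fold change from the authors' deposited table was -0.22 in the mixture and 0.04 in diclofenac. Their summed implied level was 9198 CPM in the mixture, 9476 CPM in diclofenac, 21379.9 CPM in B[a]P and 18623 CPM in Control. The sum is carried by abundant fast chains: myhz1.1 alone had 3264 CPM in the mixture, 2761 CPM in diclofenac, 10458 CPM in B[a]P and 8913 CPM in Control. The fast-muscle heavy chain gene myhz1.2 fell by 2.06 in the mixture (adjusted p = 4.06e-15) and by 2.45 in diclofenac (adjusted p = 9.48e-21) in the authors' deposited table. myhz1.1, another fast heavy chain gene, fell by 1.45 in the mixture (adjusted p = 3.18e-06) and by 1.69 in diclofenac (adjusted p = 2.42e-08) in the authors' deposited table. myhb, another myosin heavy chain gene, fell by 2.70 in the mixture (adjusted p = 1.87e-06) and by 2.08 in diclofenac (adjusted p = 0.000274) in the authors' deposited table. These heavy chain copies are similar in sequence, and it is uncertain how reads were divided among them. smyhc1, a slow-muscle heavy chain gene, rose by 0.48 in the mixture (adjusted p = 0.0481) and 0.71 in diclofenac (adjusted p = 0.00105) in the authors' deposited table.

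Other genes of thick filament assembly and turnover were called in both directions. Of 22 tested, 2 were higher and 4 lower in the mixture, beside 8.12% and 6.67% of all tested entries. In diclofenac 2 were higher and 9 lower, beside 8.52% and 7.64% of all tested entries. The medians were -0.30 in the mixture and -0.43 in diclofenac from the authors' deposited table. myom2a, which encodes a myomesin that crosslinks thick filaments, fell by 1.01 in the mixture (adjusted p = 7.84e-08) and by 1.06 in diclofenac (adjusted p = 1.61e-08) in the authors' deposited table. myom1a, another myomesin gene, fell by 0.76 in the mixture (adjusted p = 4.98e-06) and by 0.78 in diclofenac (adjusted p = 2.07e-06) in the authors' deposited table. obsl1b, an obscurin-like gene, fell by 0.91 in the mixture (adjusted p = 9.90e-07) and by 0.61 in diclofenac (adjusted p = 0.00184) in the authors' deposited table. The higher genes were trim55b and naca. trim55b, a ubiquitin ligase of the sarcomere, rose by 0.68 in the mixture (adjusted p = 0.00706) and 0.94 in diclofenac (adjusted p = 5.01e-05) in the authors' deposited table. naca, which binds nascent chains and has a muscle form needed for myofibrils in zebrafish, rose by 0.59 in the mixture (adjusted p = 0.00735) and 0.71 in diclofenac (adjusted p = 0.000626) in the authors' deposited table. smyd1a, the paralog of smyd1b, had a fold change of -0.36 in the mixture (adjusted p = 0.262) and fell by 0.66 in diclofenac (adjusted p = 0.0148) in the authors' deposited table.

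All 24 skeletal muscle markers were tested and none was at 0. In the mixture 17 were lower and 2 higher, beside 6.67% and 8.12% of all tested entries. In diclofenac 21 were lower and 2 higher, beside 7.64% and 8.52% of all tested entries. The medians were -0.68 in the mixture and -0.97 in diclofenac from the authors' deposited table. Their summed implied level was 53463 CPM in the mixture, 40161 CPM in diclofenac, 101995 CPM in B[a]P and 86159 CPM in Control. The muscle-linked chaperone genes unc45b and hsp90aa1.1 rose in the same groups in which most of these 24 markers were lower, and the part of muscle content in their values was not tested. The higher markers were desma and tnni2b.1. desma, the intermediate filament desmin, rose by 1.28 in the mixture (adjusted p = 2.36e-09) and 1.60 in diclofenac (adjusted p = 2.04e-14) in the authors' deposited table. casq1a, which encodes the calcium store protein calsequestrin, fell by 1.53 in the mixture (adjusted p = 3.52e-11) and by 1.98 in diclofenac (adjusted p = 2.78e-18) in the authors' deposited table. actn3a, an alpha-actinin gene of fast muscle, fell by 0.99 in the mixture (adjusted p = 1.60e-08) and by 1.25 in diclofenac (adjusted p = 2.61e-13) in the authors' deposited table. acta1b, a skeletal actin gene, fell by 0.90 in the mixture (adjusted p = 0.000273) and by 1.99 in diclofenac (adjusted p = 6.81e-19) in the authors' deposited table, and its mixture minus diclofenac difference of 1.09 passed (adjusted p = 0.000254).

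**Figure D5:**
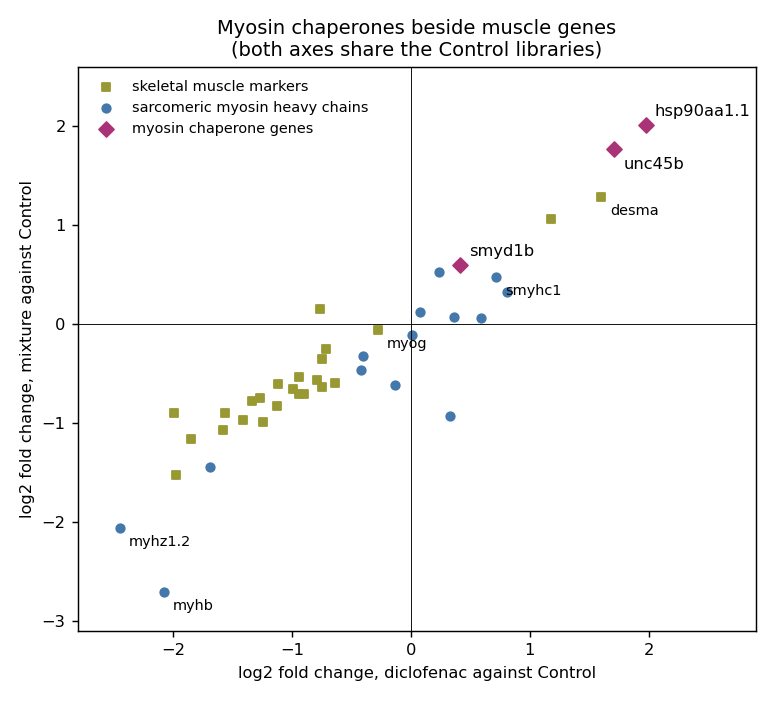
Log2 fold change against Control in the mixture (vertical axis) and in diclofenac (horizontal axis) for the myosin chaperone genes, sarcomeric myosin heavy chain genes and skeletal muscle markers; both axes use the same Control libraries, so their likeness is not a result. hsp90aa1.1 (2.01 and 1.98) and unc45b (1.76 and 1.71) lie at the upper right, and myhz1.2 (-2.06 and -2.45) lies at the lower left.

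Among the other heat shock factor and Hsf-binding genes, 3 were tested, and hsf4 was the one called. hsf4, the heat shock factor of the developing lens, had an implied level of 3.55 CPM in the mixture, 11.3 CPM in diclofenac, 15.4 CPM in B[a]P and 12.9 CPM in Control. It fell by 1.86 in the mixture (adjusted p = 4.98e-06), and its diclofenac fold change was -0.19 (adjusted p = 0.767), in the authors' deposited table. The mixture minus diclofenac difference of -1.67 passed the approximate Wald test (adjusted p = 0.00146), unlike any difference among the 10 chaperone genes. Of 9 lens markers, 4 were lower in the mixture (crygm2d1, bfsp2, crygm2d12 and cryaa), beside 6.67% of all tested entries. None of the 9 was called in diclofenac, beside 16.2% of all tested entries called in either direction. The summed implied level of the 9 markers was 1156 CPM in the mixture, 2558 CPM in diclofenac, 2620 CPM in B[a]P and 2145 CPM in Control. The part of lens content in the hsf4 values was not tested.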

How the data were processed

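Whole-body RNA was sequenced as 150 bp paired reads from a stranded poly(A) library kit, per the labels' protocols. The tools named in the submitters' processing notes are kallisto, edgeR and limma, with build GRCz11; their versions, the library scaling and the filters are not stated there. The deposited fold changes are log2 ratios of a treatment to Control, per the file headers, with base 2 inferred because the antilogs of the deposited average log2 CPM then sum to 1.01e+06. The 3 deposited averages of an entry were identical. The deposited likelihood ratio is a score, per the file headers, and the deposited p-value equalled its chi-square tail on 1 degree of freedom, so it is not adjusted.

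Benjamini-Hochberg adjustment of these two-sided p-values ran over the 21622 entries whose average reached 1 CPM, and 0.05 was the threshold. The SE was the absolute fold change over the square root of the likelihood ratio. Differences between treatments were tested by an approximate Wald test with the largest implied variance among an entry's 3 comparisons. The ratio of largest to smallest had a median of 1.03 over all tested entries. For hsp70l the implied SE ran wider, from 0.51 in B[a]P to 0.65 in diclofenac and 0.70 in the mixture. The departure from additivity took double the largest variance. Adjustment ran over the same entries, and equal spread was assumed and could not be tested. The steps were tested on simulated data with equal spread in all groups and effects smaller than that of hsp70l in the mixture. Those data cannot test the equal-spread assumption. The implied level in Control was 4 times the average CPM over 1 plus the sum of the 3 linear fold changes, and implied levels summed to between 970190 and 1.04e+06 CPM per group.

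The p-values against Control come from the authors' fit to 3 libraries per group. Those between treatments and for departure from additivity come from the approximate Wald test, with SEs implied from that fit. Those against Control set a difference against the spread between libraries as the fit estimated it. An implied SE is not that spread alone, since it was larger where the fold change was larger for hsp70l and dnajb1b. For dnajb1b it was 0.49 in B[a]P, 0.52 in diclofenac and 0.56 in the mixture. The approximate Wald test used the largest, which gives such genes wider intervals between treatments. The members and lists were chosen with earlier results of these data known, so no list serves as independent support. All 10 genes were named with every entry, and of each list up to 4 called genes with the smallest p in the mixture or diclofenac. A gene's value in a list is that of its most abundant entry; names beyond that limit were chosen after their values were seen. All 10 symbols matched RefSeq's GRCz12tu gene table, which served for names and neighbours. Sequences of promoters and proteins were not used here, so the planned motif description was not made. Python 3.11.15, numpy 2.4.6, pandas 2.3.3, scipy 1.17.1 and matplotlib 3.10.9 were used.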

Additional observations from a re-analysis of the deposited data

How the results depend on the processing

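No paired analysis was possible because the table combines the libraries of a group, so neither a replicate block nor leaving out each replicate in turn was run. Of 497 values for the 10 genes under other adjustments, filters and variances, 486 kept their direction and their side of the threshold. The exceptions were 9 calls lost, 1 gained and 1 sign turned. Only centring on the median changes a fold change, so a direction could turn in 84 of the values alone. Values that were not called and stayed so are among the 486, so that count is not a measure of how firm the calls are. Under Benjamini-Yekutieli adjustment hsf1 in diclofenac (adjusted p = 0.422), hsf1 in diclofenac against B[a]P (0.518) and smyd1b in the mixture (0.322) were lost. Without the 1 CPM filter the same hsf1 calls were lost, and with the authors' stated limit of 1.5 on the log fold change those of hsf1, smyd1b and hsp90ab1 were. The mixture minus diclofenac difference of hsp90ab1 turned to -0.00195 after centring each comparison on its median, from a value already near 0.

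Counts over all tested entries moved more. Under Benjamini-Yekutieli adjustment 1551 were called in the mixture, 1792 in diclofenac and 21 in B[a]P. For mixture against B[a]P there were 1786, for diclofenac against B[a]P 2130, for mixture against diclofenac 41 and for departure from additivity 5. With the limit of 1.5, 546 were called in the mixture and 666 in diclofenac. With the median implied variance, mixture against diclofenac gave 122 and departure from additivity 30. Implied levels of low Control genes depend on how the average is read, an alternative chosen after seeing the data: hsp70l then stood at 17090 CPM in the mixture and 32.1 CPM in Control. The single-library spread and depth behind each value are unknown.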

Other observations

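Markers of other tissues were measured in the same libraries. The counts below stand beside shares over all tested entries. In the mixture these were 8.12% higher and 6.67% lower, and in diclofenac 8.52% higher and 7.64% lower. In B[a]P 0.148% were called in either direction. Of 8 erythrocyte markers, 6 were higher in the mixture, 3 in diclofenac and none in B[a]P, and their summed implied level was 7114 CPM in the mixture, 5679 CPM in diclofenac, 5932 CPM in B[a]P and 4278 CPM in Control. The globin gene hbbe3 rose by 2.52 in the mixture (adjusted p = 4.47e-09) and 1.70 in diclofenac (adjusted p = 0.000122) in the authors' deposited table. The globin genes hbae1.1, hbbe1.1 and hbbe2 were also higher in the mixture, and hbbe2 in diclofenac. Of 7 heart markers, nppb alone was called, with 1.19 in the mixture (adjusted p = 0.00150) and 1.04 in diclofenac (adjusted p = 0.00772) in the authors' deposited table. Of 8 neuron markers, elavl4 was lower in the mixture and in diclofenac, and elavl3 was higher in diclofenac. Of 6 tested liver markers, fabp10a was lower in diclofenac, where the median of the 6 was 0.02. The average level of fabp10a was low, at 2.20 CPM. Of 4 tested enterocyte markers, fabp2 was higher and vil1 lower in the mixture.

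The entries with the most similar fold changes were ranked by Euclidean distance over the 3 comparisons with Control, among entries of at least 1 CPM outside the 10 genes. The comparisons share Control, so closeness is only a description. Closest to hsp70l were hsp70.1 (distance 0.547), si:ch211-199o1.2 (1.38), BX248124.1 (1.63), a retained intron of hsph1 (2.43) and hsp70.3 (3.02). si:ch211-199o1.2 had 7.72 in the mixture and 7.46 in diclofenac in the authors' deposited table (adjusted p = 1.93e-32 in the mixture and 6.64e-31 in diclofenac). Closest to hsp90aa1.1 were gfi1b (0.152), cyp46a1.1 (0.154), c2cd4a (0.194), ppp1r3b (0.201) and slc2a12 (0.247). Closest to unc45b were adma (0.139), arg2 (0.161), RALGDS (0.162), btg3 (0.173) and crema (0.176). The 5 closest entries lay within 0.247 of hsp90aa1.1 and of unc45b, whereas past hsp70.1 the distances from hsp70l were all 1.38 or more. The fold changes of BX248124.1 were imprecise, with an implied SE of 1.63 in diclofenac and 1.62 in the mixture.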
